A study of Drosophila melanogaster with 4 samples.

Results

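The genes described here build, modify and break down chitin in Drosophila melanogaster. Each was found in the normalized counts by its symbol, and all 9 genes sought (mmy, kkv, knk, serp, verm, Cda4, Cht2, Cht5 and Cht7) were present among 15340 genes. As described by the submitters, RNA came from whole second-instar larvae, 48 h old, of 2 genotypes. Levels of several marker genes, given below, put this origin in doubt. The mutants were homozygous for Xbp1 ex79, a deletion around the start codon of Xbp1. The controls were Xbp1+/+, from a line in which the transposon that gave rise to the deletion had left precisely. There were 2 independent RNA extractions of each genotype, so every group had n = 2, and the p values measure only the spread between these extractions. The comparison asks which transcripts differ when this transcription factor of the unfolded protein response is lost.

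Chitin is a polymer of N-acetylglucosamine that stiffens the cuticle, lines the tracheae and forms part of the peritrophic matrix of the gut. Cells make the activated sugar UDP-N-acetylglucosamine through the hexosamine pathway, and chitin synthase polymerizes it across the apical membrane. Deacetylases and chitin-binding proteins then shape the fibres, and at each molt chitinases and hexosaminidases cut the old matrix back to sugars. In the fly, epidermis and trachea are the main sites of this work, and gene activity there rises and falls with the molting cycle.

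The libraries held between 31416284 and 38601267 reads on genes, of which 40.8% to 47.1% fell on ribosomal RNA genes and pseudogenes. Xbp1 itself (FBgn0021872) had normalized counts, meaning reads divided by the size factor of the library, of 6087 and 5953 in the mutant libraries and 5521 and 7378 in the control libraries. These values overlapped, although the deletion takes away part of the coding sequence. They gave no check of the labels, so directions are those of the libraries as labelled. The paper used qRT-PCR of Xbp1 as a check of its null larvae. Its methods give a TRIzol extraction for that assay and column purification for these libraries. That check is therefore not shown to cover these libraries. Control replicate 1 stood apart in Jon65Aiii, a gut protease gene, with a normalized count of 1333 against 3.58 to 16.9 in the other libraries.

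Several markers that the label of whole second-instar larvae calls for were at or near 0. Of the defining markers of cuticle, Lcp65Ab1 and Lcp65Ac had 0 reads in all 4 libraries, where 3 reads, the limit that a count of 0 allows, correspond to normalized counts of 2.69 to 3.62. Of the 4 midgut markers the trypsin genes alphaTry and betaTry had normalized counts of at most 11.7. Myo31DF, a myosin gene of the gut, had 624 and 618 in the mutants and 329 and 363 in the controls. The trypsin genes and Lcp65Ab1 have related copies with which they may share reads. How such reads were counted is not given in the sources used here. The muscle myosin gene Mhc lay between 160 and 258. The 4 fat body markers, in contrast, summed to between 1639470 and 2763120. Fbp1 and the larval serum protein genes Lsp1alpha, Lsp1beta, Lsp1gamma and Lsp2, known for their expression in the fat body of the last larval instar, took 37.2% to 47.1% of the reads outside ribosomal RNA. In bulk RNA, fewer cells of a type and less RNA per cell cannot be told apart.

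Apart from mmy, the chitin genes were scarcely expressed. Per kilobase of annotated exon, the level of mmy lay between 457 and 631 normalized counts. The next genes in order of mean level per kilobase were Cht2 (7.09 to 16.5), serp (9.68 to 13.8), verm (6.05 to 20.9) and knk (7.22 to 11.1). They were followed by kkv (2.36 to 10.7), Cht5 (3.39 to 7.18), Cht7 (0.911 to 5.45) and Cda4 (0 to 1.39). The ranges of neighbouring genes in this order overlapped, except that mmy stood above all others. Among genes with at least 1 read, mmy was at the 89.3rd percentile of mean normalized count, and the other 8 were between the 11.1st and the 39.1st. The 8 genes without mmy together held 138 to 234 reads per library, so counting error alone is a large part of their spread.

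**Figure D1:**
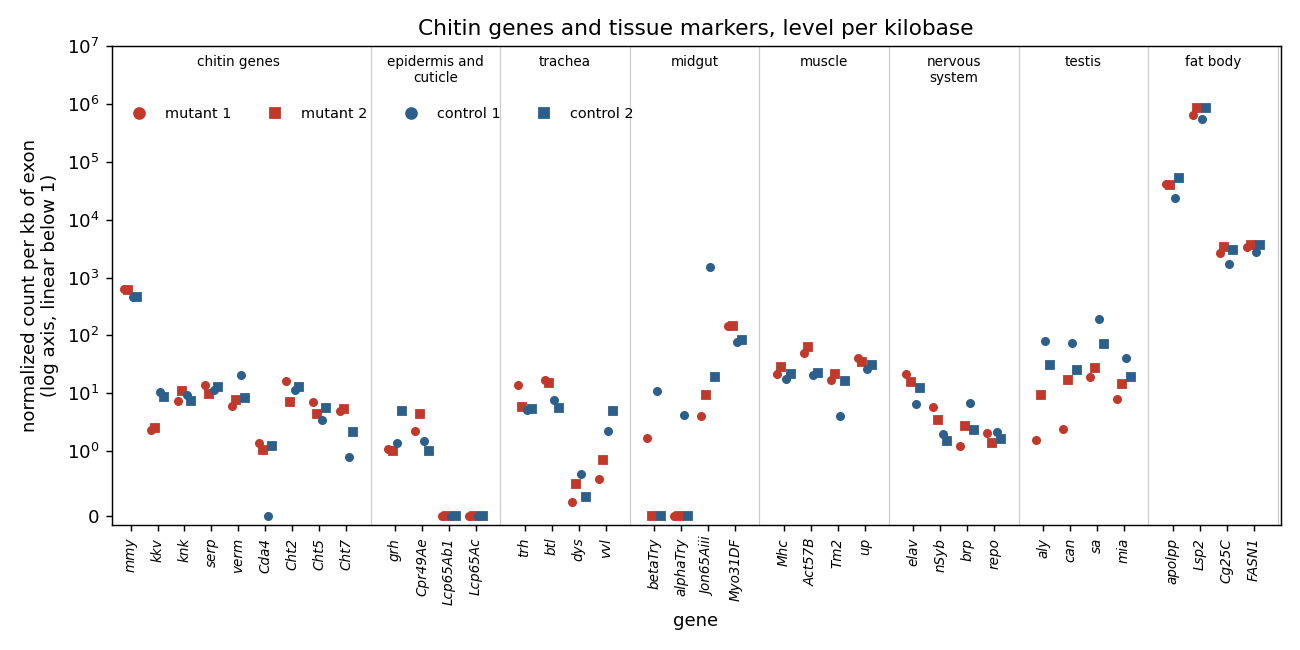
Levels per kilobase of exon (log axis, linear below 1) of the 9 chitin genes and of marker genes of 7 tissues in each of the 4 libraries, where a point is a library. Points of mmy lie between 457 and 631, those of the other chitin genes between 0 and 20.9, and Lcp65Ab1 and Lcp65Ac lie at 0 in every library.

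For the test between genotypes, genes whose normalized counts averaged 10 or more were compared by limma on log2(normalized count + 1), with Benjamini-Hochberg adjustment over 10500 genes. This scale understates the change of low genes. Of the 9 chitin genes 8 were tested, and Cda4 was too low. At an adjusted p under 0.05 limma called 0 of these 8. In the whole table it called 0 genes (0%) lower and 1 (0.00952%) higher in the mutants, so the absence of calls was shared with nearly the whole table. At an unadjusted p under 0.05, kkv was lower and Cht7 higher, which is 2 of 8 beside 14.1% of all genes (7.24% lower and 6.89% higher). Cht7 passed the minimum of 10 only through the mutant libraries, where it was high, so its place in such counts is no support. Cht5 too averaged above 10 only in the mutants (12.2, against 9.63 in the controls). edgeR on reads recovered from the values called none of the 8, and DESeq2, which called 1.7% of all genes lower and 1.8% higher, called none of the 6 for which it gave an adjusted p. Blocking on the replicate number, DESeq2 called 1.15% of genes lower and 1.15% higher. Of the members it gave an adjusted p only to mmy (0.750 by DESeq2), which it did not call. Without mutant replicate 2 limma called 1.25% lower and 0.371% higher, again without a member. A block with the replicate numbers crossed, chosen after seeing the data, called 13.4% lower and 3.71% higher, with 1 member lower. The groups did not overlap for 4 of the 8, kkv and verm lower and mmy and Cht7 higher in the mutants, beside 54.1% of all genes tested (27.9% lower and 26.2% higher). The median log2 fold change of the 8 was 0.03, against -0.03 for all genes tested.

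The gene that makes the chitin precursor was the most abundant member. How far the levels of this and the other hexosamine pathway genes serve chitin was not tested. mmy (FBgn0259749; dm6, chromosome arm 2L, 6468538 to 6473904, minus strand) encodes UDP-N-acetylglucosamine pyrophosphorylase, the last enzyme of the hexosamine pathway. Its normalized counts were 1384 and 1323 in the mutant libraries and 1004 and 1008 in the control libraries. Both mutant values were higher than both control values, and the 2 extractions of each genotype were close to each other. The log2 fold change was 0.43 (standard error 0.17, 95% interval -0.00 to 0.86, adjusted p = 0.347 by limma), a 1.34-fold difference that did not pass the test.

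Values of 3 other genes of this pathway were also higher in both mutant libraries, and those of Gfat1 were lower. Gfat2, which encodes the glutamine:fructose-6-phosphate aminotransferase of the entry step, had normalized counts of 836 and 838 in the mutants and 614 and 578 in the controls. Of its 2545 exonic bases, 468 lie opposite asRNA:CR46104, a limit taken up below for knk. nst, the phosphoacetylglucosamine mutase gene, had 944 and 912 against 534 and 701. Gnpnat, the gene of the acetyltransferase between them, had 97.7 and 88.2 against 51.3 and 61.5. In each of these 3 genes the mutant values lay above the control values. Their log2 fold changes were 0.49 for Gfat2, 0.60 for nst and 0.71 for Gnpnat, with adjusted p values by limma from 0.347 to 0.352. Thus 0 of 4 tested genes of precursor synthesis passed the test, 4 of 4 did not overlap and were higher (beside 26.2% of all genes tested), and their median log2 fold change was 0.55 against -0.03 for all genes. Gfat1, the paralog of Gfat2, was too low to test, with normalized counts of 4.48 and 5.13 in the mutants and 7.20 and 12.1 in the controls. It was the only gene of the 5 that was lower in both mutant libraries.

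The chitin synthase gene went the other way. kkv (FBgn0001311; 3R, 5378093 to 5392866, minus strand) encodes the synthase of epidermis and trachea. Its normalized counts were 13.4 and 14.4 in the mutant libraries, from 15 and 14 reads, and 61.2 and 48.2 in the control libraries, from 68 and 40 reads. The groups were well apart, and the exact 95% Poisson intervals, which cover counting error only, ended at 24.1 in the mutants and began at 34.5 in the controls. The log2 fold change was -1.89 (standard error 0.44, 95% interval -3.03 to -0.76, adjusted p = 0.347 by limma). It ranged from -2.06 to -1.73 when each library was left out in turn. DESeq2 gave an adjusted p of 0.104. The 4 epidermis and cuticle markers summed to 12.5 and 14.4 in the mutants and 14.4 and 45.8 in the controls, with Lcp65Ab1 and Lcp65Ac at 0. The 4 tracheal markers summed to 147 and 97.4 against 72.0 and 76.0. Among the tracheal markers trh and btl were higher in both mutant libraries, dys overlapped, and vvl was lower, at 2.69 and 4.10 against 10.8 and 24.1. Of the cuticle markers grh was lower and Cpr49Ae higher in both mutant libraries. Of all genes tested, 54.1% did not overlap in either direction. The part of either tissue in the kkv difference was not tested.

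Of the proteins that work beside the synthase, exp and reb, which are needed for chitin deposition in the trachea, were too low to test. reb had normalized counts of 14.3 and 10.3 in the mutants and 2.70 and 1.21 in the controls. exp had 11.6 and 9.23 against 3.60 and 6.03. Both were higher in both mutant libraries, opposite to kkv, but rested on no more than 16 reads in any library. Of the genes tested, 26.2% were higher without overlap, a share that leaves out genes as low as these. The gut synthase gene Chs2 was not analysed here.

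**Figure D2:**
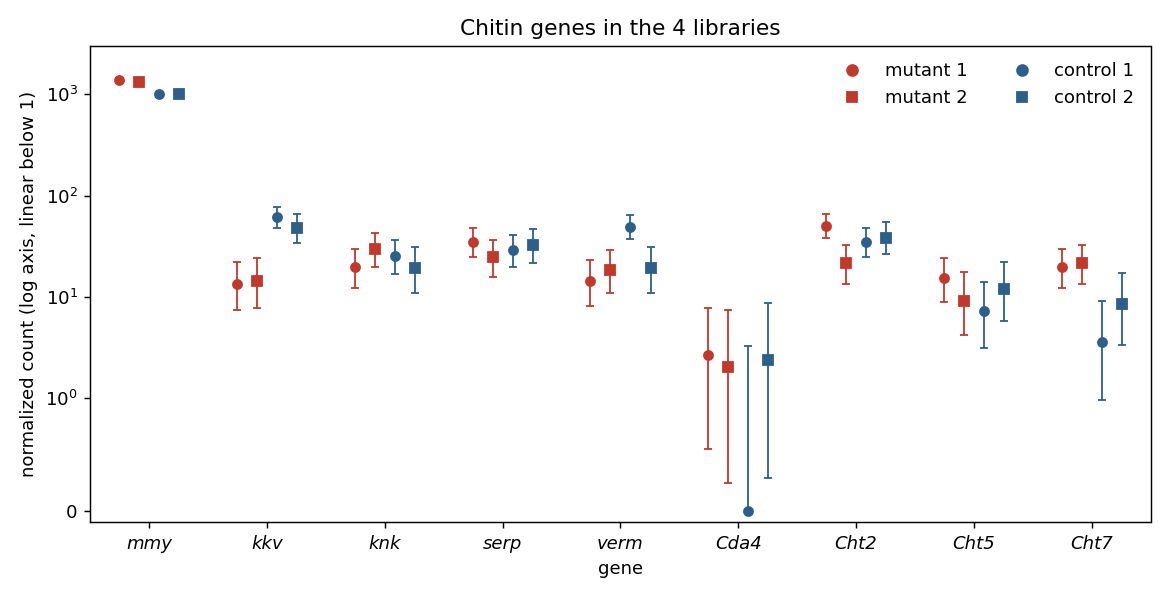
Normalized counts (log axis, linear below 1) of the 9 chitin genes in the 4 libraries, with exact 95% Poisson intervals for counting error. For kkv the mutant points (13.4 and 14.4) lie below the control points (61.2 and 48.2), for Cht7 they lie above, and for knk, serp, Cht2 and Cht5 the groups overlap.

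No difference was detectable in the gene that protects new chitin. knk (FBgn0001321; 3R, 10122365 to 10125664, minus strand) encodes a membrane-anchored protein needed to organize chitin in the cuticle and trachea. Its normalized counts were 19.7 and 29.7 in the mutants and 25.2 and 19.3 in the controls, and the groups overlapped. The log2 fold change of 0.13 had a 95% interval from -1.15 to 1.41 (adjusted p = 0.906 by limma), so differences of more than 2-fold in either direction were within reach of the error. Of its 2674 exonic bases, 1712 lie opposite the antisense gene asRNA:CR46038. The kit marked strand, but whether the counting used it is not given in the sources used here, and without it reads of the pair cannot be told apart.

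The other matrix organizers in the table were all below the minimum of 10. rtv, a membrane protein gene needed for tracheal chitin, had normalized counts of 12.5 and 13.3 in the mutants and 6.30 and 2.41 in the controls. obst-E had 8.96 and 13.3 against 6.30 and 2.41, and Gasp, a chitin-binding protein gene of the trachea, had 6.27 and 5.13 against 2.70 and 1.21. For these 3 both mutant values lay above both control values, as for 26.2% of the genes that were tested. That share leaves out genes as low as these. The groups overlapped for obst-A (2.70 to 16.1 over all libraries) and obst-B (1.03 to 7.24). No row was matched for Knk2 and Knk3.

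The deacetylase genes serp and verm lie 5.7 kb apart on 3L, on the minus strand, and both are known for limiting the length of tracheal tubes. The normalized counts of serp (FBgn0260653; 19700977 to 19708015) were 34.9 and 24.6 in the mutants and 28.8 and 32.6 in the controls. The groups overlapped, and the log2 fold change was -0.06 (standard error 0.45, 95% interval -1.21 to 1.09, adjusted p = 0.952 by limma). For verm (FBgn0261341; 19690033 to 19695260) the values were 14.3 and 18.5 in the mutants and 49.5 and 19.3 in the controls. The groups were just apart, and control replicate 1 was far above the other 3 libraries. The log2 fold change of verm was -0.89 (standard error 0.62, 95% interval -2.48 to 0.70, adjusted p = 0.474 by limma), and it was -0.23 without control replicate 1. Within a library the log2 ratio of verm to serp was 0.78 in control replicate 1 and -1.29 to -0.42 in the others.

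Cda4 (FBgn0052499; X, 22583634 to 22632710, minus strand), a deacetylase-like gene, was read 3, 2, 0 and 2 times in mutant 1, mutant 2, control 1 and control 2. All 4 libraries were at or below the 3 reads that a count of 0 allows, so no fold change is given. Of the other deacetylase genes, Cda5 was much the most abundant, with normalized counts of 537 and 400 in the mutants and 400 and 587 in the controls, and a log2 fold change of -0.06. ChLD3 had 6.27 and 10.3 against 18.0 and 18.1, both mutant values below the control values (log2 fold change -1.07, standard error 0.58, adjusted p = 0.387 by limma). It passed the minimum of 10 only through the control libraries. Cda9, too low to test, had 9.86 and 12.3 against 5.40 and 6.03. Of the 4 deacetylase genes tested 0 passed, and 2 of them, verm and ChLD3, were lower without overlap, beside 27.9% of all genes tested. The place of ChLD3 in this count is no support, since it was tested only because its control values were high. For verm the gap was only that between 18.5 and 19.3.

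Among the chitinase genes Cht2, Cht5 and Cht7, the last was the one whose groups did not overlap. Cht7 (FBgn0035398; 3L, 3090985 to 3106958, minus strand) has a counterpart in the beetle Tribolium castaneum that is needed for wing expansion. Its normalized counts were 19.7 and 21.5 in the mutants, from 22 and 21 reads, and 3.60 and 8.44 in the controls, from 4 and 7 reads. The 2 mutant values were close together and above both control values. The log2 fold change was 1.71 (standard error 0.65, 95% interval 0.05 to 3.38, adjusted p = 0.347 by limma), and it lay between 1.19 and 2.23 when each library was left out in turn. DESeq2 gave no adjusted p for it. Cht7 and kkv crossed over between the groups. The log2 ratio of the Cht7 to the kkv normalized count was 0.55 and 0.58 in the mutant libraries and -4.09 and -2.51 in the control libraries, a pair chosen after its values were seen and given without a test.

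The remaining members did not differ beyond their spread. Cht2 (FBgn0022702; 3L, 1752328 to 1755934, minus strand), a chitinase gene, was at 50.2 and 21.5 in the mutants and 35.1 and 38.6 in the controls. The mutant libraries bracketed the control libraries, and the log2 fold change was -0.16 (standard error 0.55, 95% interval -1.55 to 1.24, adjusted p = 0.897 by limma). Cht5 (FBgn0038180; 3R, 13767549 to 13770732, plus strand), whose counterpart in Tribolium is needed for molting, had 15.2 and 9.23 against 7.20 and 12.1. Its groups overlapped, and the log2 fold change was 0.32 (95% interval -1.33 to 1.96, standard error 0.64, adjusted p = 0.813 by limma).

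**Figure D3:**
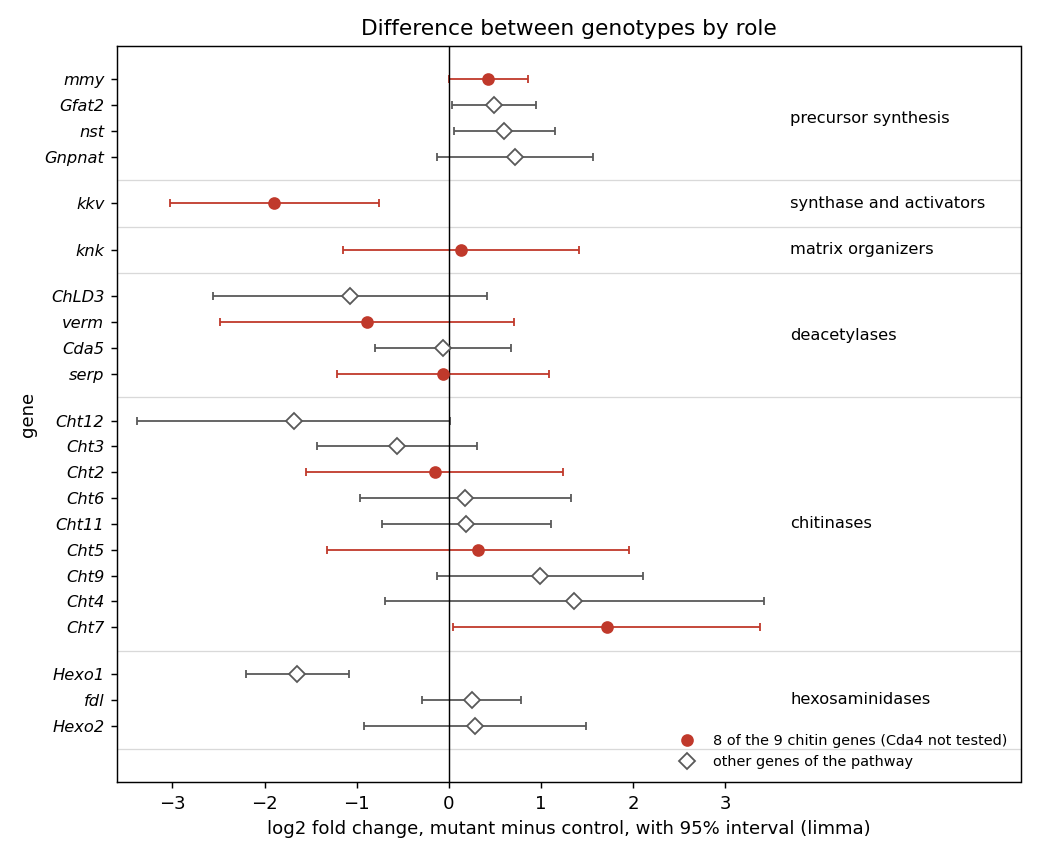
Log2 fold changes (mutant minus control, limma) with 95% intervals for the 22 tested genes of the chitin pathway, grouped by role, with 8 of the 9 genes sought in filled circles (Cda4 was not tested). kkv (-1.89) and Hexo1 (-1.65) lie to the left with intervals that exclude 0, the 4 genes of precursor synthesis lie to the right, and the intervals of most chitinases cross 0.

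The other chitinase genes differed in level and direction. Cht12, Cht4, Cht9 and Cht8 form a cluster on 2R, 74.3 to 80.3 kb from the start of Xbp1, and as related copies they may share reads. Cht12 had normalized counts of 51.1 and 124 in the mutants and 436 and 153 in the controls, lower in both mutant libraries. Its log2 fold change by limma, -1.68 (adjusted p = 0.347, standard error 0.66), was -0.93 without control replicate 1 and -1.05 without mutant replicate 1. Cht9 had 63.6 and 109.7 against 36.0 and 48.2, with a log2 fold change of 0.99 (adjusted p = 0.349 by limma) that was 0.60 without mutant replicate 2. Of the 1161 exonic bases of Cht9, 893 lie opposite asRNA:CR44703, with the same limit as for knk. Cht4 had 21.5 and 50.2 against 6.30 and 22.9, and its groups overlapped. Cht8, too low to test, had 5.38 and 21.5 against 3.60 and 1.21. Neighbours in this cluster thus lay on opposite sides, with Cht12 lower and Cht9 higher in both mutant libraries. Of all genes tested, 27.9% were lower and 26.2% higher without overlap, so this is no result about the cluster. Cht3, which RefSeq now calls Cht10, had 127 and 82.0 against 139 and 165, with a log2 fold change of -0.56 that was -0.25 without mutant replicate 2. Of the 9 chitinase genes tested 0 passed, and their median log2 fold change was 0.19.

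The hexosaminidase genes held the clearest difference of the pathway. Hexo1 (FBgn0041630; 3L, 4288641 to 4291211, plus strand) encodes a beta-N-acetylglucosaminidase that takes single sugars off chitin fragments. Its normalized counts were 381 and 292 in the mutants and 1074 and 1020 in the controls. Both mutant libraries were far below both control libraries, at a level where counting error is small. The log2 fold change was -1.65 (standard error 0.22, 95% interval -2.20 to -1.09), a 3.13-fold difference, and it stayed between -1.84 and -1.46 when each library was left out. It did not pass limma (adjusted p = 0.229) or edgeR (adjusted p = 0.283), while DESeq2 on the recovered reads called it lower (adjusted p = 8.93e-05), as it did 1.7% of the genes to which it gave an adjusted p. The other hexosaminidase genes did not differ beyond their error. fdl, whose enzyme trims N-glycans, had 560 and 597 against 438 and 540 (log2 fold change 0.25, adjusted p = 0.544 by limma), and 536 of its exonic bases lie opposite Dh44-R2. Its fold change was 0.097 without control replicate 1. Hexo2 had 451 and 196 against 198 and 303, with overlapping groups, and its log2 fold change of 0.28 was -0.32 without mutant replicate 1 and -0.026 without control replicate 1. Within a library the log2 ratio of Hexo1 to fdl was -0.56 and -1.03 in the mutants and 1.30 and 0.92 in the controls, a pair also chosen after its values were seen.

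Over the 36 genes of the 6 role lists, 33 had a row and 22 were tested, of which 0 passed limma's adjusted p of 0.05 and 5 had an unadjusted p under 0.05 (beside 14.1% of all genes). These 5 were kkv and Hexo1, lower, and Gfat2, nst and Cht7, higher in the mutants. Of the 22, 6 were lower and 7 higher without overlap between the groups, beside the 54.1% of all genes given above. Cht7 passed the minimum of 10 only through the mutant libraries and ChLD3 only through the control libraries. Their place in these counts is therefore no support. Some marker genes of other tissues also differed in level between the groups, without a test. All 4 testis markers were lower in both mutant libraries (beside 27.9% of all genes tested), with sums of 49.3 and 135 against 692 and 259. Of the muscle markers 3 of 4 were higher (beside 26.2% of all genes tested), with sums of 423 and 514 against 275 and 353. Of the nervous system markers 2 of 4 were higher, of the midgut markers 1 was higher and 1 lower, and of the fat body markers 0 of 4 stood apart. These counts too stand beside 54.1% of all genes tested, in either direction. The part of these tissues in the differences of the chitin genes was not tested.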

How the data were processed

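RNA, described as from whole larvae, was made into stranded total RNA libraries after removal of ribosomal RNA and read as pairs of 50 nt. Per the submitters' processing notes and the methods, the authors aligned reads to dm6 with TopHat2 (2.1.1), counted them per gene with HTSeq (0.6.1) and scaled the counts in DESeq2. What was deposited is this signal: read counts divided by the size factor of the library. All values (100%) were whole multiples of 1 read within 0.01 read, so reads could be recovered. Gene models came from Ensembl's annotation of the same assembly, and older symbols were matched through RefSeq names.

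Groups were compared with limma (3.58.1 in R 4.3.3, moderated variances following mean level) on log2(value + 1), for genes with a mean of at least 10, two-sided, at an adjusted p of 0.05. With 2 against 2, an exact permutation test cannot go below p = 0.333. DESeq2 (1.42.0, all genes with a read) and edgeR (4.0.16) on recovered reads, other pseudocounts, filters and scalings, the replicate number as a block, and fits without each library were alternatives. The fits were also run on simulated data, and as the outcome is not reported here it is no support for the calls. Members, lists and markers were chosen with earlier results of these data known. Named were all members, up to 4 further tested genes of each list with the largest change, and those too low to test. Protein and promoter sequences were not used here.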

Additional observations from a re-analysis of the deposited data

How the results depend on the processing

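Of 25 named genes fitted, 17 kept their direction under those of the 17 alternatives that could be fitted for them. Small fold changes turned: knk to -0.012 after rescaling libraries to equal totals without ribosomal RNA, and serp to 0.23, Cht2 to 0.16 and Cda5 to 0.016 with quantile normalization. Without each library in turn the log2 fold change ranged from -0.29 to 0.12 for Xbp1, -0.15 to 0.41 for knk, -0.30 to 0.18 for serp, -0.75 to 0.44 for Cht2 and -0.019 to 0.65 for Cht5. It ranged from -0.34 to 0.21 for Cda5, -0.32 to 0.88 for Hexo2 and -1.60 to 0.69 for Hr4. The rescaling without ribosomal RNA moved the median of all genes to -0.18 and quantile normalization to 0.07, against -0.03 as deposited. Counts of calls, 0 lower and 1 higher in limma, were 3 higher with no filter, 4 lower and 10 higher with equal totals, 3 higher without ribosomal RNA, 4 and 12 with quantile normalization, and 0 higher with eBayes without trend. DESeq2 called 168 lower and 178 higher, among them 1 other chitin pathway gene, Hexo1, lower. Without each library the counts ranged from 0 to 131 lower and from 0 to 39 higher, and the larger numbers came without mutant replicate 2. In these fits a lone library is assumed to vary like the other group. The median of the members tested, 0.03, was 0.43 with a mean of at least 50, which left mmy alone, 0.29 with quantile normalization, and -0.16 to 0.31 without each library. That of the other pathway genes, 0.22, was 0.47 with quantile normalization and 0.00089 to 0.35 without each library. The causes were not tested.

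Libraries share only a replicate number, and deviations from group means correlated at -0.443 between same-numbered libraries, across genes. With the replicate block limma called 0 lower and 0 higher, and DESeq2 92 and 92, with Hexo1 (1 pathway gene) lower at an adjusted p of 0.00363. A crossed replicate block, chosen after seeing the data, called 1410 lower and 390 higher, among them 1 member and 2 other pathway genes lower.

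Depth limits Cda4 (7 reads over the 4 libraries), Cht5 (44) and Cht7 (54) most among the members, and 8 of the 9 members had at most 148 reads in all.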

Other observations

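Chitin genes follow the ecdysone pulses that time the molts, and 9 regulators of that response were read in the same libraries. Per kilobase of exon their levels ranged from 6.79 to 1331 normalized counts. Eip75B, a nuclear receptor gene induced by ecdysone, had normalized counts of 17907 and 15297 in the mutants and 9940 and 9327 in the controls, higher in both mutant libraries. limma gave a log2 fold change of 0.78 with an adjusted p of 0.347 (standard error 0.20), and DESeq2 an adjusted p of 0.0819. ftz-f1, a receptor gene that follows the pulse, had 183 and 187 against 132 and 134 (log2 fold change 0.47), and usp, the partner of the ecdysone receptor, had 659.5 and 584 against 436 and 523 (0.38 on the same log2 scale). Hr4 had 463 and 94.3 against 327 and 252, and its groups overlapped. Of the 9 regulators 0 passed limma, 3 did not overlap and were higher (beside 26.2% of all genes tested), and their median log2 fold change was 0.32 against -0.03 for all genes.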
